A study of Mus musculus with 8 samples.

Results

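The mitochondrial ribosomal protein genes were examined in RNA sequencing counts from whole mouse hearts late in gestation (E18.5). They were chosen by symbol: every protein-coding gene named Mrpl or Mrps followed by a number, with at least 10 counts in at least 4 libraries. This rule took 78 of the 49315 genes counted, 49 named for the large subunit (Mrpl) and 29 for the small subunit (Mrps). No protein-coding gene of either name fell below the count minimum, all 78 also passed the filter of the test below, and 5 pseudogenes with such symbols were left out. The 8 libraries came from 4 wild type (WT) hearts and 4 hearts homozygous for the M195I change in CHD4 (M195I/M195I, called mutant here). CHD4 is the ATPase that moves nucleosomes in the nucleosome remodelling and deacetylase complex. No treatment, strain, litter or batch is named in the labels, and the column headers of every library begin with the word Male. The samples are labelled as separate hearts only by number, so p-values measure the spread between these samples.

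Mitochondria make the core proteins of the respiratory chain on their own ribosomes, which are built from RNAs encoded in mitochondrial DNA and from proteins that are encoded in the nucleus and imported. Some of these proteins have counterparts in bacterial ribosomes and others are found only in mitochondria. Heart muscle depends on respiration for contraction, and defects in several of these proteins cause cardiomyopathy in children. The 2 mitochondrial ribosomal RNAs (mt-Rnr1 and mt-Rnr2) were not analysed here.

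Summed over genes, a WT library held 18375951 to 20815388 counts and a mutant library 18673488 to 21341235. All 10 cardiomyocyte markers (among them Tnnt2, Myh6, Actc1 and Ryr2) were found, and their summed level was 55381 to 62469 CPM, the count as a share of the library after scaling by TMM (edgeR's factor for library composition), in WT and 46772 to 52648 in the mutants. Of these 10 markers, 1 (Actc1) was called lower, at 11206 ± 775 CPM in WT and 8288 ± 516 in the mutants (SD, n = 4 each; edgeR adjusted p = 0.00018). Over all 16372 genes tested, 13.2% were called and 26.3% had an unadjusted p under 0.05. The sum is weighted to the most abundant of the 10, with WT means from 148 to 17090 CPM. The median log2 fold change (mutant minus WT) of the 10 was -0.09, with 9 below 0 and 4 at an unadjusted p under 0.05. Transcripts of lung epithelium were also present: Scgb3a2, a secretory protein of the airway, was above 10 CPM by library totals in 5 libraries (all WT replicates but the second, and mutant replicates 3 and 4), with 0.328 to 6.48 in the other 3. The summed level of the lung epithelium list was 40.9 to 558 CPM in WT and 38.5 to 859 in the mutants. Summed erythroid markers were 2035 to 3894 CPM in WT and 1252 to 1973 in the mutants, with 0 of 7 called by edgeR and 4 of 7 at an unadjusted p under 0.05. Some markers of other cell types were called as well, in lists of 5 or 6 genes each. Smooth muscle markers summed to 1872 to 1951 CPM in WT and 1464 to 1652 in the mutants, with 2 of 5 called lower (Myl9 and Acta2, median log2 fold change of the 5 -0.28), and epicardial markers to 254 to 295 and 202 to 246 CPM, with 2 of 5 lower (Upk1b and Msln, median -0.31). Acta2 and Myl9 make up most of the smooth muscle sum, and Cnn1 of the same list had a positive estimate (0.15). Of 6 fibroblast markers 2 were lower (Postn and Tcf21), of 6 endothelial markers 1 was higher (Tek) and 1 lower (Kdr), and of 5 macrophage markers 1 was higher (Lyz2). The shares called were 40% for smooth muscle and epicardial, 33.3% for fibroblast and endothelial and 20% for macrophage markers, against 13.2% of all genes tested. The marker lists were chosen with earlier results of these data known, so these shares are descriptions. The part of these marker differences in the results below was not tested. In bulk tissue, fewer cells of a type and less RNA per cell cannot be told apart.

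In WT hearts the 78 transcripts covered a wide range of levels. Because longer transcripts collect more reads, levels were compared between genes as CPM per kilobase of annotated exon (CPM per kb). Large-subunit transcripts ran from 2.36 to 233 CPM per kb, with a median of 22.9, and small-subunit transcripts from 3.76 to 74.1, with a median of 15.5. The highest of all was Mrpl42, a mitochondria-specific protein of the large subunit, at 233 CPM per kb. It was followed by Mrpl12, the stalk protein that recruits translation factors, at 97.5, and by Mrpl34, a small protein with a bacterial counterpart, at 84.2. The lowest of the large subunit were Mrpl53, at the base of the stalk, with 2.36 CPM per kb, Mrpl17 with 4.02 and Mrpl48 with 5.46. Exons of Mrpl53 overlap those of 2 other genes, among them Gm42688 on the same strand. The part of this overlap in the low count of Mrpl53 was not tested. Among small-subunit genes the order was led by 3 transcripts. These were Mrps21 at 74.1 CPM per kb, Mrps16 at 55.2 and Mrps23 at 53.0, of which the first 2 have bacterial counterparts and Mrps23 does not. Mrps10, Mrps25 and Mrps35 were at the other end, at 3.76, 5.03 and 6.17 CPM per kb. These levels use all annotated exons of a gene as its length, so a gene with long exons that are rarely used appears lower. In mutant hearts Mrpl42 was again the highest of the 78, at 219.8 CPM per kb, and Mrpl53 the lowest, at 2.16, while Mrps23 (52.1) stood above Mrps16 (50.4). Neighbours in this order lie close together on the log axis of the plot of levels.

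**Figure D1:**
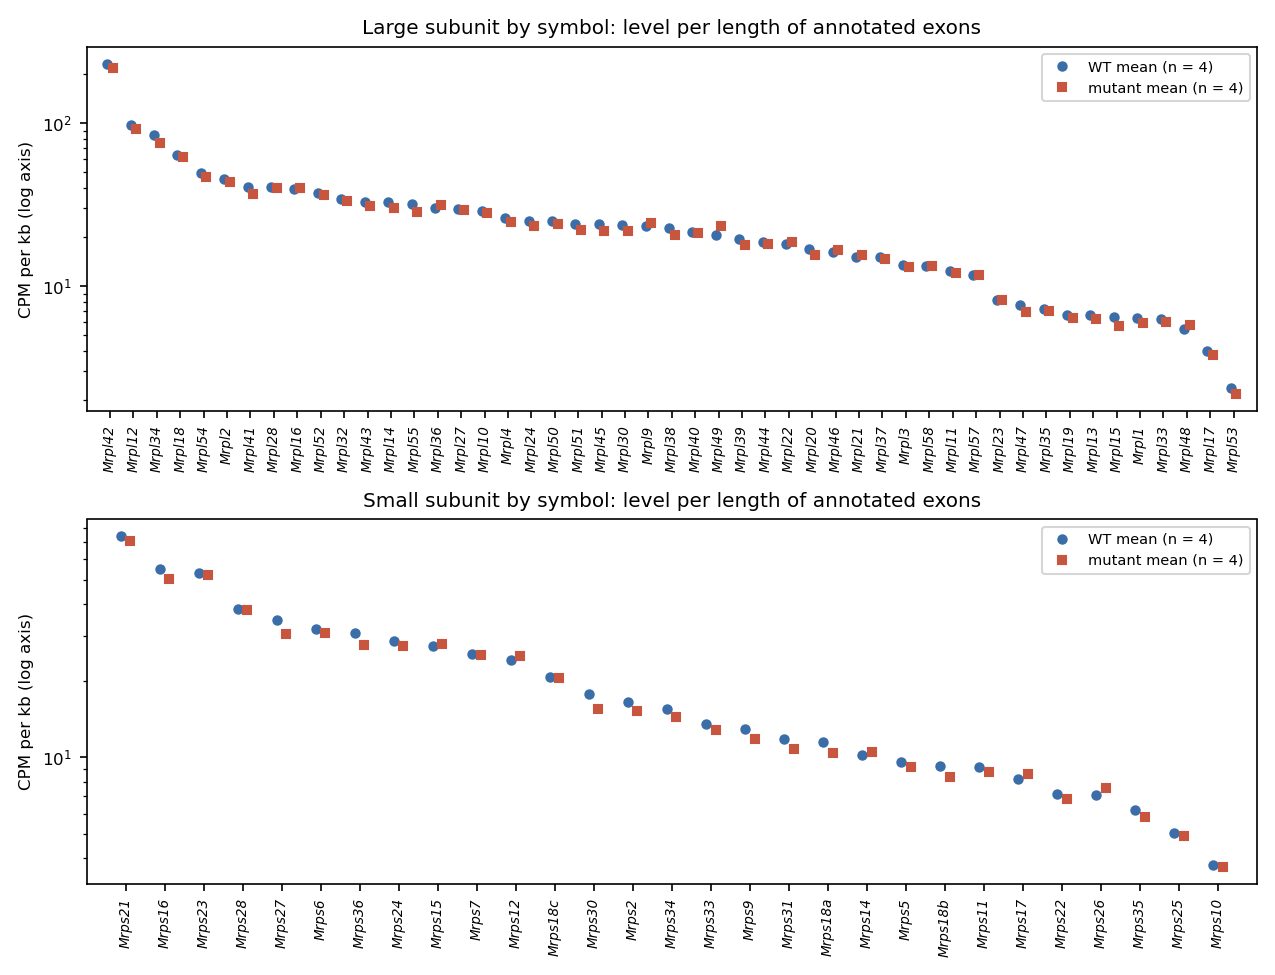
Mean level (n = 4) of each of the 78 transcripts in CPM per kb on a log axis, large subunit above and small subunit below, WT as circles and mutants as squares. In WT, large-subunit transcripts run from 2.36 (Mrpl53) to 233 (Mrpl42) CPM per kb and small-subunit transcripts from 3.76 (Mrps10) to 74.1 (Mrps21).

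Replicate hearts gave similar values for these genes. The coefficient of variation over 4 libraries had a median of 6.60% across the 78 genes in WT (range 2.02% to 13.9%) and of 4.56% in the mutants (1.09% to 10.96%). Mrpl53 had the fewest counts, with 1.87 ± 0.175 CPM in WT and 1.71 ± 0.176 in the mutants (SD, n = 4 each), and its fold change was the least precise at -0.13 ± 0.18 (log2, SE). Every other member averaged more than 17 CPM in WT.

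Homozygous mutant hearts differed from WT hearts by little in these transcripts. Of the 78, 1 was higher in the mutants and 2 were lower at a Benjamini-Hochberg adjusted p under 0.05 in edgeR's quasi-likelihood test, which is 3.85%. Across all 16372 genes tested, 942 (5.75%) were higher and 1226 (7.49%) were lower, together 13.2%. Scaled by library totals in place of TMM, the same test called 1856 higher and 858 lower. The median log2 fold change (mutant minus WT, here and below) of the 78 was -0.07, a change of -4.45%, and 63 of 78 estimates were below 0. The median over all genes tested was 0.00, with 8187 of 16372 below 0. Single estimates ran from -0.20 to 0.18. Their standard errors had a median of 0.057 and the 95% intervals a median half-width of 0.12, so most estimates could not be told from 0. With TMM scaling, 76 of the 78 intervals lay within 1.25-fold in either direction and all 78 within 1.5-fold. Each interval is for a single gene, without adjustment for the number of genes. The intervals also leave out the choice of scaling: with library totals the median over all genes was 0.05. The same 1.25-fold limit held for 52.2% of all genes tested. Those have lower levels (median 19.1 CPM in WT, against 40.1 for the members) and a larger median standard error (0.078), so the 2 shares are not alike in precision. At an unadjusted p under 0.05 there were 16 members lower and 1 higher (21.8%), against 26.3% of all genes.

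**Figure D2:**
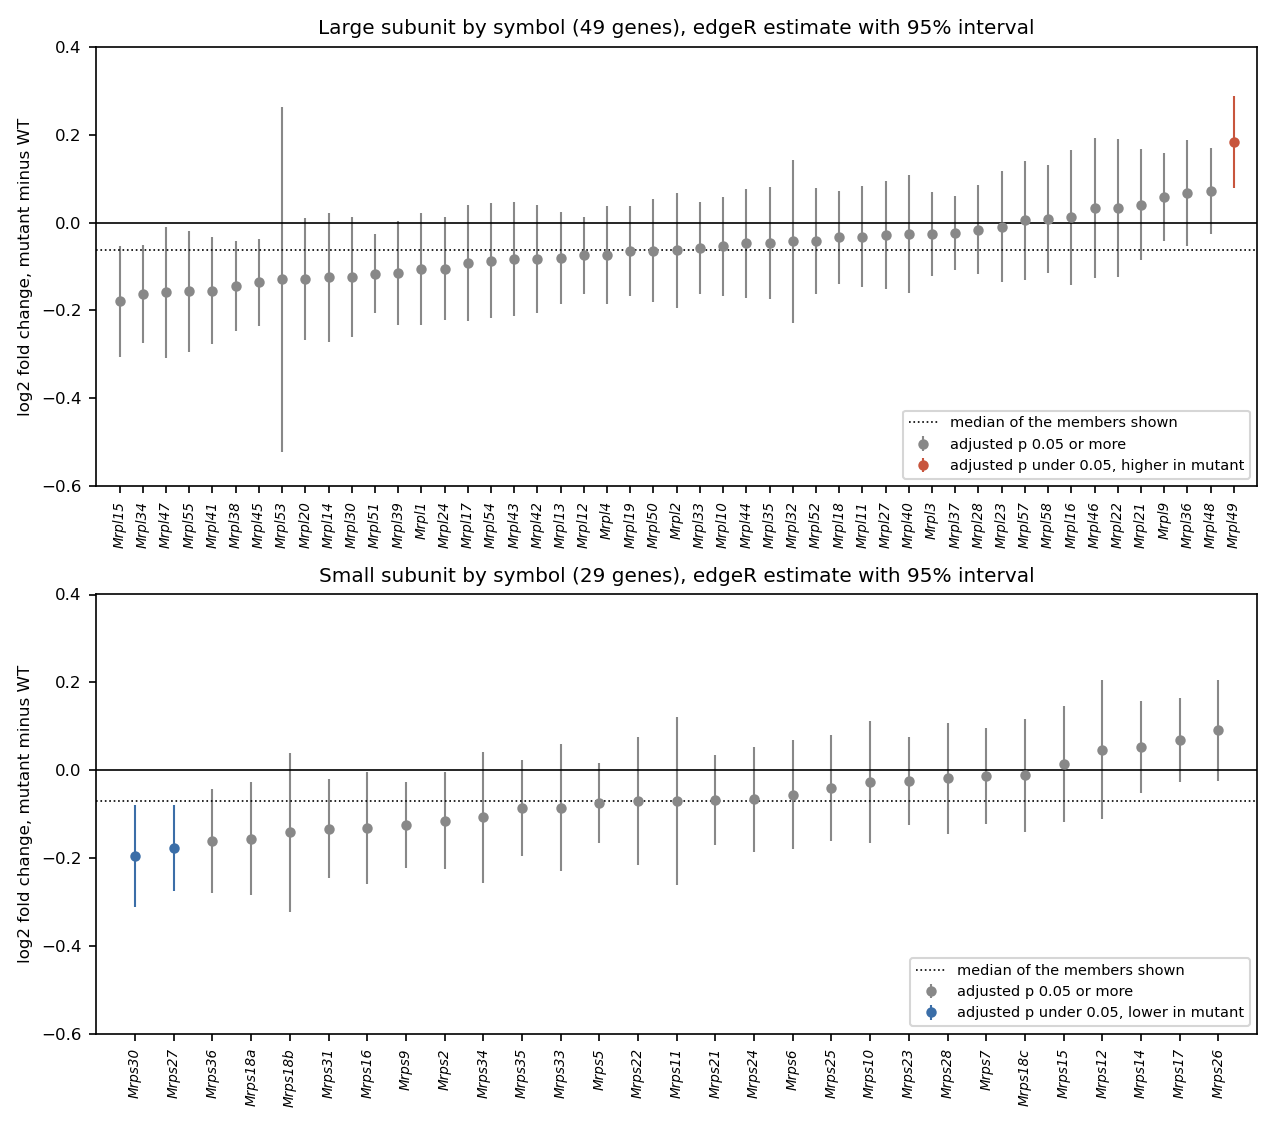
Log2 fold change of each member (mutant minus WT, points) with its 95% interval from edgeR (bars), large subunit above and small subunit below, ordered by value. Most intervals cross 0, the medians (dotted) are -0.06 and -0.07, and coloured points mark Mrpl49 (higher) and Mrps27 and Mrps30 (lower), which passed the test.

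The 2 subunits gave close values. In the large subunit 39 of 49 estimates were below 0, the median was -0.06, and 1 gene was called (Mrpl49, higher). In the small subunit 24 of 29 were below 0, the median was -0.07, and 2 were called (Mrps27 and Mrps30, both lower). The difference between the subunits was not tested.

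Mrps27, a pentatricopeptide repeat protein specific to the mitochondrial small subunit, was lower in the mutants. The gene lies on chromosome 13 (GRCm38, chr13:99344786-99415561, plus strand). It measured 62.2, 67.2, 62.0 and 65.0 CPM in WT replicates 1 to 4, and 54.8, 57.8, 59.4 and 54.5 CPM in mutant replicates 1 to 4. All 4 mutant libraries were below all 4 WT libraries. The means were 64.1 ± 2.48 and 56.6 ± 2.38 CPM (SD, n = 4 each), a log2 fold change of -0.18 ± 0.05 (SE; 95% interval -0.28 to -0.08; edgeR adjusted p = 0.0175). The call was lost without WT replicate 2 (adjusted p = 0.050), WT replicate 4 (0.052) or mutant replicate 4 (0.054), and with library totals (0.053). Its exons share 588 bases with those of 6430562O15Rik, whose log2 fold change was -0.05 (adjusted p = 0.89).

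Mrps30 was lower as well. Its symbol places it in the small subunit, but in the mammalian ribosome the protein, also called mL65, sits in the large subunit. The gene lies at chr13:118380110-118387252 on the minus strand. WT replicates 1 to 4 gave 28.1, 29.1, 27.8 and 28.0 CPM, and mutant replicates 1 to 4 gave 24.0, 25.2, 23.2 and 26.1. The genotypes did not overlap. The log2 fold change was -0.20 ± 0.05 (SE; 95% interval -0.31 to -0.08; edgeR adjusted p = 0.0261), from 28.2 ± 0.569 CPM in WT to 24.6 ± 1.29 in the mutants (SD, n = 4 each). The call was lost without WT replicate 1 (0.060), 2 (0.066) or 4 (0.053), without mutant replicate 1 (0.056) or 3 (0.093), and with library totals (0.088). Exons of Mrps30 overlap those of B430218F22Rik, which had too few counts to be tested (a mean of 5.0 per library).

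Mrpl49, a mitochondria-specific protein of the large subunit, was the member called higher. It lies at chr19:6053630-6057751 on the minus strand. Its levels were 34.8, 35.9, 36.2 and 34.1 CPM in WT replicates 1 to 4 and 39.5, 41.6, 41.6 and 37.5 CPM in mutant replicates 1 to 4. Every mutant library stood above every WT library. The means were 35.3 ± 0.973 and 40.1 ± 1.96 CPM (SD, n = 4 each), a log2 fold change of 0.18 ± 0.05 (SE; 95% interval 0.08 to 0.29; edgeR adjusted p = 0.0227). The call was lost without WT replicate 1 (0.068) or 4 (0.069) and without mutant replicate 2 (0.071) or 3 (0.066), and it held with library totals. Exons of Mrpl49 overlap those of Syvn1, a ubiquitin ligase of the endoplasmic reticulum. Syvn1 measured 34.4 ± 1.19 CPM in WT and 36.8 ± 1.09 in the mutants (log2 fold change 0.09, adjusted p = 0.22).

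All 3 called members thus share exon bases with another gene. In all 3 the partner lies on the opposite strand. Whether the counting used strand is not stated in the labels, so reads from overlapping exons cannot be assigned here. The part of partner reads in the 3 calls was not tested. Of the 78 members, 31 had such an overlap. Among these 31, 3 were called (9.68%, against 13.2% of all genes tested) and 5 had an unadjusted p under 0.05 (16.1%, against 26.3%). Their median log2 fold change was -0.06, with 24 estimates below 0. The 47 without overlap had 0 called by edgeR and 12 at an unadjusted p under 0.05 (25.5%). Their median log2 fold change was -0.07, with 39 estimates below 0. The difference between the 2 groups was not tested.

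**Figure D3:**
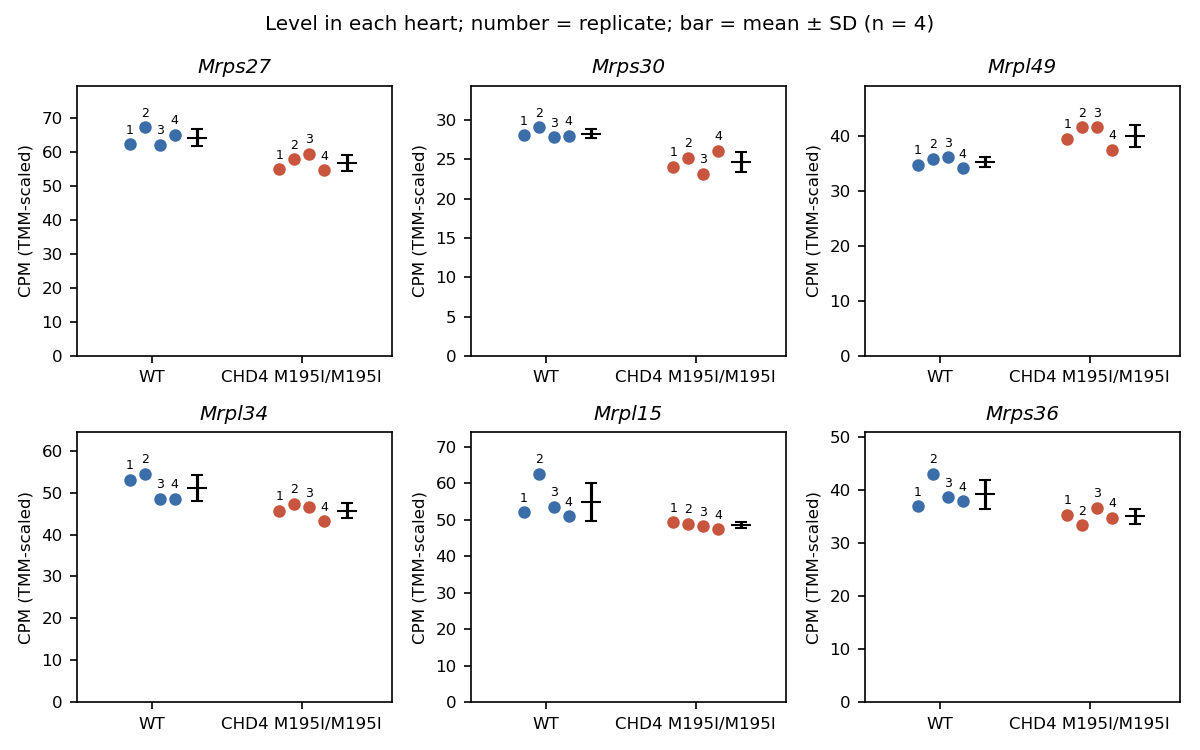
CPM in each of the 8 libraries for Mrps27, Mrps30, Mrpl49, Mrpl34, Mrpl15 and Mrps36, with the mean and SD of each genotype (n = 4). The genotypes do not overlap in any of the 6 panels, and WT replicate 2 is the highest library for Mrps27, Mrps30, Mrpl34, Mrpl15 and Mrps36.

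Promoter sequence was read for the members because several carry the same short word at their start. Since the word was noticed in these members, its share among them is a description and tests nothing. RefSeq's promoter windows on GRCm38.p6 (250 bases before to 50 after the annotated start) were found for 69 of the 78. None was found for Mrpl4, Mrpl13, Mrpl15, Mrpl19, Mrpl38, Mrpl54, Mrps28, Mrps34 and Mrps35. The letters AAGATGGC, the core of the word bound by YY1, were searched on both strands and occurred in 12 of 69 member promoters (17.4%), against 4.36% of the promoters of 11093 tested protein-coding genes and 3.12% of all 19775. In 8 members the word lies after the start site, on the strand of the gene in each. Its ATG is an annotated start codon in 6 of the 8, all but Mrpl37 and Mrpl42. Mrps27 and Mrpl49, which changed in opposite directions, are among these 6. The share of all genes with the word at this position, or at a start codon, is not given here. The 8 stretches are given 5′ to 3′ on the strand of the gene, with AAGATGGC in capitals.
Mrps27, chr13:99344789-99344818, plus strand: tggtgcgctccAAGATGGCggctcccatgg
Mrpl49, chr19:6057721-6057750, minus strand: gttgaggcgccAAGATGGCagcagcggtgt
Mrps18a, chr17:46111004-46111033, plus strand: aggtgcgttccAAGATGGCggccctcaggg
Mrps7, chr11:115604147-115604176, plus strand: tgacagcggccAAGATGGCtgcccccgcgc
Mrps24, chr11:5707652-5707681, minus strand: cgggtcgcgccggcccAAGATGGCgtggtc
Mrpl35, chr6:71823743-71823772, minus strand: aggcaggctgcAAGATGGCggcttccatct
Mrpl37, chr4:107066822-107066851, minus strand: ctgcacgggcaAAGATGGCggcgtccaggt
Mrpl42, chr10:95501904-95501933, minus strand: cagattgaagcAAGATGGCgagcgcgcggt

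A pair of other words was searched in the same way. The ETS word CCGGAAG occurred in 25 of 69 member promoters (36.2%), against 17.2% of tested protein-coding genes and 11.3% of all. The NRF1 word CGCATGCG occurred in 7 (10.1%), against 3.71% and 2.37%. At least 1 of the 3 words was present in 37 member promoters (53.6%), against 23.4% of tested protein-coding genes. Mrps27 also holds the ETS word on the reverse strand before its start, so it reads CTTCCGG, in capitals, on the strand of the gene.
Mrps27, chr13:99344727-99344756, plus strand: tggtaggaccaCTTCCGGcggaggcgggct
No shared letters between the YY1 and ETS words were found in member promoters. The fold changes were close with and without each word: the median log2 fold change was -0.04 in the 12 members with the YY1 word and -0.06 in the 57 without it, -0.06 and -0.06 for ETS, and -0.05 and -0.06 for NRF1. These are matches of letters, given as a description.

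Levels did not overlap between the genotypes for 9 of the 78 (11.5%), 8 lower and 1 higher in the mutants. Over all genes tested this held for 18.6% (9.77% lower, 8.8% higher). Beyond the 3 called members, Mrpl15, Mrpl34 and Mrps36 had the largest such differences. Mrpl15, with a bacterial counterpart, measured 52.1, 62.6, 53.6 and 50.9 CPM in WT replicates 1 to 4 and 49.3, 48.8, 48.3 and 47.3 in the mutants. Its log2 fold change was -0.18 ± 0.06 (SE, n = 4 each; edgeR adjusted p = 0.060). WT replicate 2 stands well above the other 7 libraries for this gene. Mrpl34 measured 53.0, 54.5, 48.5 and 48.5 CPM in WT and 45.7, 47.4, 46.5 and 43.2 in the mutants, a log2 fold change of -0.16 ± 0.05 (adjusted p = 0.053). Without WT replicate 4, Mrpl15 passed the test (0.049), and without WT replicate 3, Mrpl34 did (0.045). Mrps36 is now known as a component of the 2-oxoglutarate dehydrogenase complex rather than of the ribosome. It measured 37.0, 43.2, 38.7 and 38.0 CPM in WT and 35.4, 33.4, 36.8 and 34.8 in the mutants, a log2 fold change of -0.16 ± 0.06 (adjusted p = 0.070). Mrpl38, Mrpl45 and Mrps31, named after their values were seen, complete the 9 with log2 fold changes of -0.14, -0.14 and -0.13 (adjusted p = 0.063, 0.067 and 0.12). Mrpl45 anchors the mitochondrial ribosome to the inner membrane.

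The largest positive estimates other than that of Mrpl49 were small. Mrps26 had a log2 fold change of 0.09 ± 0.05 (adjusted p = 0.32), from 30.8 ± 0.894 to 32.8 ± 2.05 CPM (SD, n = 4 each). Mrpl48 and Mrps17 both had 0.07 (adjusted p = 0.36 and 0.37). Their replicates overlap between the genotypes.

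The members were then grouped by role. Among large-subunit proteins, the 30 with a bacterial counterpart had 0 called by edgeR (4 at an unadjusted p under 0.05) and a median log2 fold change of -0.06. The 19 specific to mitochondria had 1 called (Mrpl49, 5.26% against 13.2% of all genes tested) and the same median of -0.06. Among members with a small-subunit symbol, the 16 with a bacterial counterpart had 0 called (3 at an unadjusted p under 0.05) and a median of -0.04. The 13 specific to mitochondria had 2 called (Mrps27 and Mrps30), 12 estimates below 0 and a median of -0.11. Their share called, 15.4%, was near the 13.2% of all genes tested. Without Mrps18a and Mrps30, which sit in the large subunit, and Mrps36, the other 10 had 1 called (Mrps27), 9 below 0 and a median of -0.09. These medians are descriptions, and the difference between groups was not tested.

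Parts of the large subunit gave small values too. The stalk and its base, where translation factors bind (Mrpl10, Mrpl11, Mrpl12, Mrpl53 and Mrpl54), had 5 of 5 estimates below 0 with a median of -0.07. At the exit of the polypeptide tunnel (Mrpl17, Mrpl22, Mrpl23, Mrpl24, Mrpl45 and Mrpl47) 5 of 6 were below 0, with a median of -0.10. The central protuberance, which contacts the small subunit (Mrpl18, Mrpl27, Mrpl38, Mrpl40, Mrpl46, Mrpl48, Mrpl55 and Mrpl58), had 5 of 8 below 0 and a median of -0.03. None of these 19 genes was called by edgeR, with 4 at an unadjusted p under 0.05. Mrpl58, a peptidyl-tRNA hydrolase that became part of the large subunit, was at 44.2 ± 2.98 CPM in WT and 44.4 ± 2.51 in the mutants (SD, n = 4 each; log2 fold change 0.01 ± 0.06, adjusted p = 0.96). Mrps18a, which like Mrps30 belongs to the large subunit in spite of its symbol, had a log2 fold change of -0.16 ± 0.06 (adjusted p = 0.11), and passed without mutant replicate 3 (0.038).

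The negative medians were smaller without 1 library, WT replicate 2. It was the highest of the 8 libraries for 60 of the 78 members (36 large, 24 small) and the highest WT library for 68. Its values deviated from the WT mean by a median of 0.10 (log2). Mutant replicate 4 was the lowest of the 8 for 26 members and WT replicate 1 for 15. WT replicate 2 was also the library with the highest summed cardiomyocyte markers (62469 CPM) and the WT library with the least lung epithelium transcripts (40.9 CPM), and the part of these in the members' levels was not tested.

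The summed level of the large-subunit transcripts was 2292, 2569, 2347 and 2336 CPM in WT replicates 1 to 4, and 2247, 2321, 2361 and 2223 CPM in mutant replicates 1 to 4. The genotypes overlapped. The mean was 2386 ± 124 CPM in WT and 2288 ± 64.2 in the mutants (SD, n = 4 each), a difference of -4.10%, or -1.59% without WT replicate 2. The small-subunit sum was 1127, 1264, 1150 and 1161 CPM in WT and 1117, 1131, 1144 and 1102 CPM in the mutants. These also overlapped, with 1176 ± 60.5 against 1124 ± 18.2 CPM, a difference of -4.40%, or -1.95% without WT replicate 2. Scaled by library totals, the differences were -0.53% and -0.83%. TMM factors were 0.963 to 0.993 in WT and 1.01 to 1.03 in the mutants, so the scaling itself differed by genotype.

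**Figure D4:**
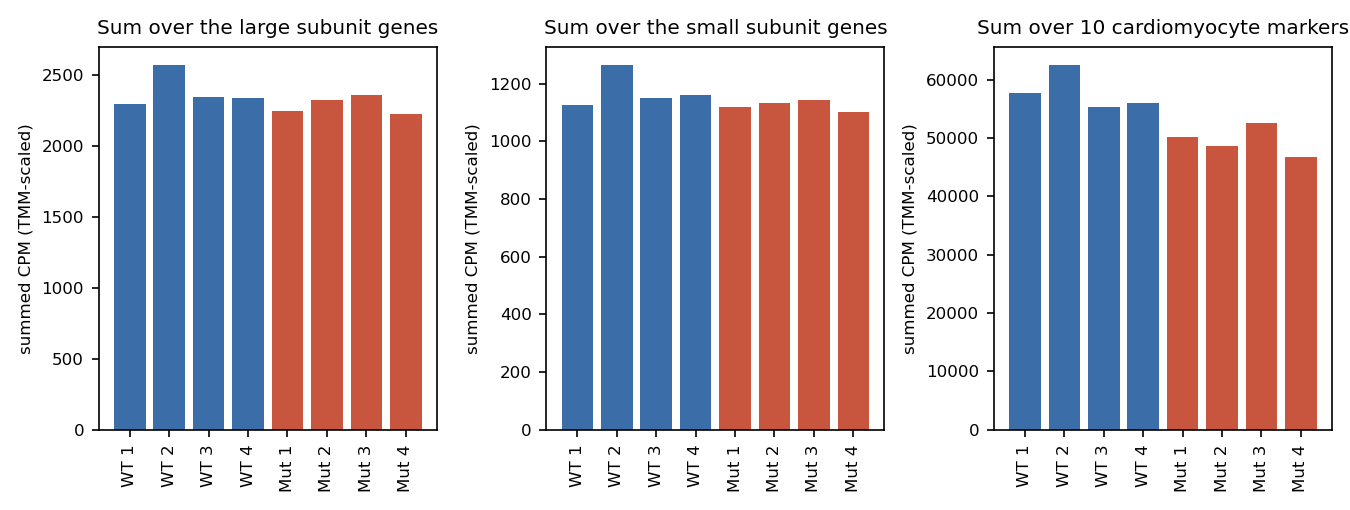
Summed CPM of large-subunit members, small-subunit members and 10 cardiomyocyte markers in each library (1 bar a library, WT and then mutant (Mut) replicates 1 to 4). WT replicate 2 is the highest library in all 3 panels (2569, 1264 and 62469 CPM), and the genotypes overlap for both subunits but not for the cardiomyocyte markers. The marker sum is weighted to the most abundant of the 10.

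Without WT replicate 2 the median log2 fold change was -0.02 in both subunits, 53 of 78 estimates were below 0 and only Mrpl49 was called. Without mutant replicate 4 the large-subunit median was -0.03 and the small-subunit median -0.06. With library totals the medians were -0.01 and -0.02 while that of all genes moved to 0.05, 45 of 78 were below 0, and again Mrpl49 alone was called. Within the 5 libraries with airway transcripts the medians were -0.03 and -0.04 and no member was called by edgeR, with 11 at an unadjusted p under 0.05 (adjusted p = 0.13 for Mrpl49, 0.10 for Mrps27 and 0.13 for Mrps30). Within the 3 libraries without them, where WT replicate 2 is the only WT library and is assumed to vary like the mutants, the medians were -0.17 and -0.16 and 6 members were called lower: Mrpl15, Mrpl30, Mrpl42, Mrpl43, Mrpl47 and Mrps36. The 3 members called with all libraries were not among them.

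**Figure D5:**
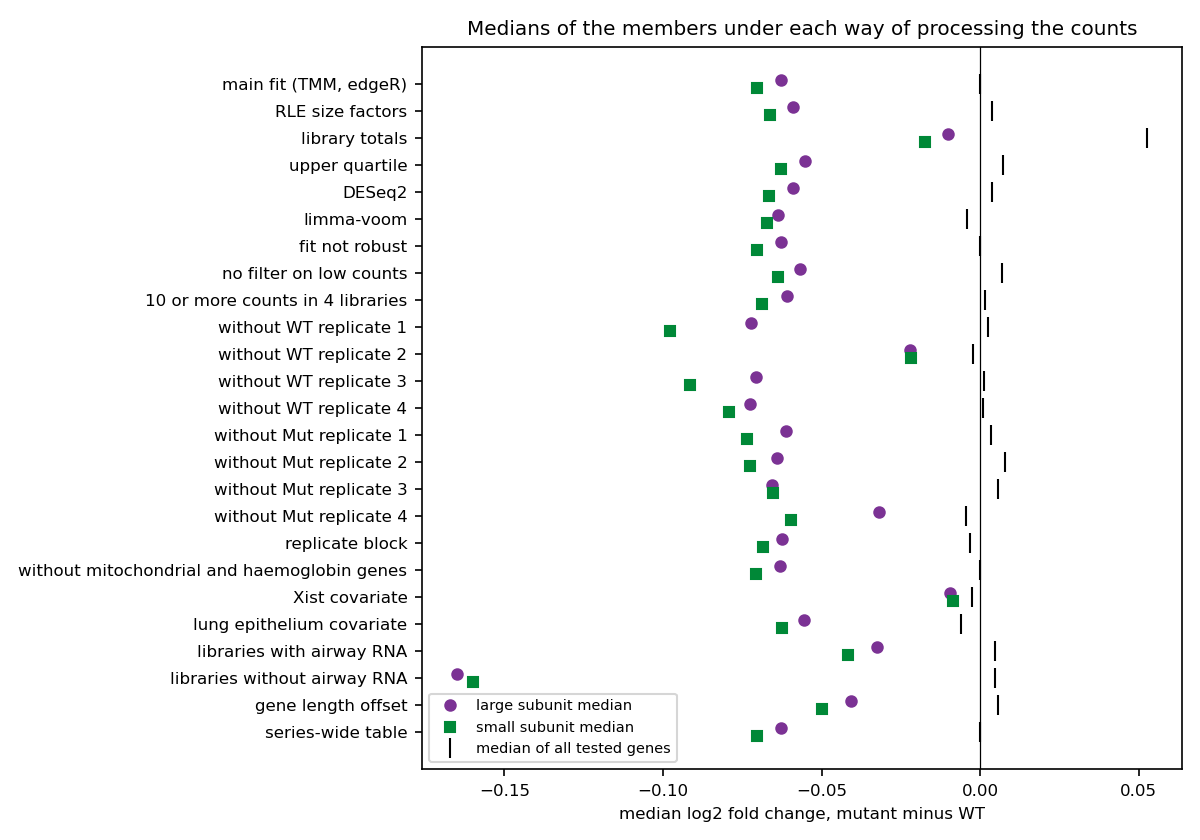
Median log2 fold change (mutant minus WT) of the large-subunit members (circles), small-subunit members (squares) and all tested genes (ticks) under each way of processing the counts. The members' medians lie below 0 throughout and range from -0.17 and -0.16 (libraries without airway RNA) to -0.01 (Xist covariate), with -0.02 in both subunits without WT replicate 2.

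Ribosomal proteins of the mitochondrion that carry other symbols showed the same small values. Dap3, the GTP-binding protein of the small subunit, had a log2 fold change of -0.07 (adjusted p = 0.40), and Ptcd3, a pentatricopeptide repeat protein, had -0.03 (0.69). Chchd1 had -0.08 (0.35), Aurkaip1 -0.01 (0.93) and Gadd45gip1, at the tunnel exit of the large subunit, -0.03 (0.78). None of these 5 was called by edgeR or reached an unadjusted p of 0.05.

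Genes that act around the mitochondrial ribosome were read in lists. Of 30 assembly factors and enzymes that modify its RNA, 0 were called by edgeR (2 at an unadjusted p under 0.05) and the median log2 fold change was 0.01. Of 20 aminoacyl-tRNA synthetases and amidotransferase subunits of the mitochondrion, 0 were called (3 at an unadjusted p under 0.05) and the median was 0.00. Of 13 tested translation factors, 2 fell and none rose (15.4% called, against 13.2% of all genes), with a median of 0.01. They were Tufm, the elongation factor that delivers aminoacyl-tRNA, which went from 188 ± 10.7 to 168 ± 5.63 CPM (log2 fold change -0.16 ± 0.04, adjusted p = 0.029), and Gfm2, which recycles ribosomes after termination, from 58.8 ± 4.26 to 51.5 ± 1.44 CPM (-0.19 ± 0.05, adjusted p = 0.024). Both calls were lost with library totals (0.079 and 0.064) and without WT replicate 2 (0.071 and 0.063), WT replicate 4 (0.076 and 0.056), mutant replicate 3 (0.094 and 0.081) or mutant replicate 4 (0.074 and 0.052). That of Tufm was also lost without mutant replicate 1 (0.064) and that of Gfm2 without mutant replicate 2 (0.056).

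In the list for mitochondrial transcription, replication and RNA handling, 3 of 21 fell and none rose (14.3% called, against 13.2% of all genes), with a median of -0.09. Grsf1, an RNA-binding protein of mitochondrial RNA granules, went from 179 ± 6.39 to 160 ± 5.25 CPM (SD, n = 4 each; log2 fold change -0.16 ± 0.04, edgeR adjusted p = 0.014). Ptcd2, which helps process the cytochrome b transcript, went from 58.5 ± 3.67 to 50.7 ± 2.27 CPM (-0.21 ± 0.05, adjusted p = 0.017). Hsd17b10, a subunit of mitochondrial ribonuclease P, had -0.17 ± 0.05 (adjusted p = 0.032). The call of Grsf1 was lost without mutant replicate 3 (0.061) and that of Ptcd2 without mutant replicate 4 (0.054). That of Hsd17b10 was lost with library totals (0.087), limma-voom (0.061) and a fit that is not robust (0.053), and without any 1 library but WT replicate 1 and mutant replicate 2 (0.055 to 0.091). Ptcd2 lies beside Mrps27: the 2 genes are read in opposite directions from starts 108 bases apart, and both were called lower.

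Among 12 regulators of mitochondrial gene expression, 4 fell and 1 rose (41.7% called, against 13.2% of all genes). This list was chosen with earlier results of these data known, so its share is a description and tests nothing. Esrrb, an orphan nuclear receptor, had a log2 fold change of -0.59 ± 0.09 (SE; edgeR adjusted p = 0.00059), Ppara, the fatty acid receptor, had -0.42 ± 0.07 (0.00065) and Myc -0.51 ± 0.09 (0.0030). Within the libraries without airway RNA the call of Ppara was lost, at -0.24 (0.22), and with Xist as a covariate those of Esrrb (0.21), Ppara (0.18) and Myc (0.17) were lost. The last to fall was the coactivator Ppargc1a, named after its values were seen, with 173 ± 5.86 and 152 ± 11.7 CPM (-0.19 ± 0.05, adjusted p = 0.020), a call lost with library totals (0.061) and without WT replicate 2 (0.060), WT replicate 4 (0.072), mutant replicate 3 (0.084) or mutant replicate 4 (0.057). Gabpb1, which pairs with the ETS factor Gabpa, rose by 0.17 ± 0.05 (adjusted p = 0.047). The differences in Esrrb, Myc and Ppara were larger than any among the 78 members. The call of Gabpb1 was lost without any 1 of 7 libraries (all but mutant replicate 1, adjusted p = 0.051 to 0.14), and with DESeq2 (0.072), limma-voom (0.064), the length offset (0.077) and the removal of mitochondrial and haemoglobin genes (0.051).

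Of the 13 tested messenger RNAs encoded in mitochondrial DNA, which these ribosomes translate, 3 rose and 3 fell (46.2% called, against 13.2% of all genes). mt-Nd4, mt-Cytb and mt-Nd5 rose by 0.24, 0.22 and 0.18 (adjusted p = 0.0077, 0.0073 and 0.0075), and mt-Nd4l, mt-Nd3 and mt-Co3 had log2 fold changes of -0.70, -0.66 and -0.45 (0.00016, 0.011 and 0.025). The 3 that rose had WT means of 2241 (mt-Nd4), 6964 (mt-Cytb) and 5065 CPM (mt-Nd5). The 3 that fell had far lower WT means, of 11.96 (mt-Nd4l), 82.9 (mt-Nd3) and 9.17 CPM (mt-Co3). In WT libraries mt-Co2 was lower still, at 1.83 to 3.25 CPM, beside 20224 to 21800 for mt-Co1. Whether such low counts follow the levels of these messenger RNAs was not tested. mt-Nd4l shares exon bases with mt-Nd4, mt-Co3 with mt-Atp6, and mt-Nd5 with mt-Nd6. Within the libraries without airway RNA the calls of the 3 that rose were lost, with values of 0.09 for mt-Nd4 (0.64), 0.10 for mt-Cytb (0.62) and 0.19 for mt-Nd5 (0.21). They were also lost with Xist as a covariate (0.32, 0.26 and 0.26), as were those of mt-Nd3 (0.25) and mt-Co3 (0.60). The call of mt-Co3 was lost without WT replicate 2 (0.086), mutant replicate 3 (0.087) or mutant replicate 4 (0.063). Mitochondrial transcripts made up 4.40% to 4.95% of the counts of each library.

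Chd4 itself, whose change is a single amino acid, measured 452 ± 6.37 CPM in WT and 482 ± 8.48 in the mutants (SD, n = 4 each; log2 fold change 0.09 ± 0.03, edgeR adjusted p = 0.094). It passed the test with DESeq2 (0.0043) and with library totals (0.0063). Its level does not check the genotype labels, since the change is not a deletion.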

How the data were processed

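Per the labels' protocols, a TruSeq RNA kit was used on Trizol extracts. The submitters' processing notes name Trimmomatic 0.36, STAR 2.5.2b, featureCounts and Subread 1.5.2, and the build GRCm38. The authors deposited raw counts per gene, and 0 values differed between the library files and the series-wide table. Neither annotation release nor strand setting is given in the sources used here. Symbols came from GENCODE M21, where 65 of the 78 members had the same position.

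Genes were filtered (filterByExpr, minimum count 10), scaled by TMM and compared with edgeR 4.0.16 (R 4.3.3), without covariates, over all genes. The members and lists were chosen with earlier results of these data known. Named were called members, the 3 highest and 3 lowest per kb, the 2 largest changes each way per subunit, up to 3 called genes each way per list, and a fixed set. On simulated counts (16116 genes tested, 200 changed), 49.0% of 1.25-fold changes and 73.5% of 1.5-fold changes were recovered, and 1.39% of calls were false. Replicate libraries differed beyond sampling noise (chi-square per degree of freedom 2.87 to 9.18). Alternatives were DESeq2 1.42.0, limma 3.58.1, other scalings, filters, covariates and libraries.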

Additional observations from a re-analysis of the deposited data

Results flagged for a closer look

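Mrps35, a small-subunit protein, measured 51.4, 58.59, 51.2 and 51.9 CPM in WT replicates 1 to 4, and WT replicate 2 stood far above the other 3 libraries: the gap made up 0.905 of the range of the group, above the critical value of Dixon at 95%. It was 1 of 46 groups of 4 libraries checked, and chance gives such a gap in about 1 group in 20. Its log2 fold change was -0.09 (edgeR adjusted p = 0.31).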

How the results depend on the processing

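RLE and upper quartile scaling, DESeq2, limma-voom, a fit that is not robust, a minimum of 10 counts in 4 libraries and the removal of mitochondrial and haemoglobin genes each called the same 3 members. Library totals called 1856 genes higher over the whole table and 0 Mrps members lower. Xist as a covariate left 109 genes higher and 141 lower, with 0 Mrpl members higher, 0 Mrps members lower and a Mrps median of -0.0084. Xist was at 1.25 to 1.56 CPM in WT and 1.55 to 1.98 in the mutants (by library totals), nearly split by genotype, so this covariate and the genotype can hardly be told apart. In the libraries with airway RNA 609 genes were higher, with 0 Mrpl higher and 0 Mrps lower. In those without it 595 genes were higher and 812 lower, with 0 Mrpl higher, 5 Mrpl lower, 1 Mrps lower, and medians of -0.17 (Mrpl) and -0.16 (Mrps). Mrpl members called lower, 0 as reported, numbered 2 with no filter, 4 with a lung epithelium covariate, 6 at an adjusted p under 0.1 and 1 with subunits by structure. Mrps members called lower, 2 as reported, numbered 1 with a gene length offset, 4 at an adjusted p under 0.1 and 1 by structure. At 0.1, 1427 genes were higher in all. The cause of these changes was not tested.

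Replicate numbers are shared between the genotypes. Same-numbered libraries deviated together for numbers 2 and 3 (correlations of 0.77 and 0.56), hardly for number 4 (0.10) and not for number 1 (-0.52). Correlations of differently numbered libraries ran from -0.78 (WT replicate 2 and mutant replicate 4) to 0.66 (WT replicate 2 and mutant replicate 1). The numbers were therefore not taken to pair the samples. With the replicate number as a block, 3 Mrpl members were called lower (Mrpl15, Mrpl34 and Mrpl45), 1023 genes were higher and 1432 lower.

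Leaving out each library in turn gave 579 (without WT replicate 1) to 850 genes higher and 899 to 1137 lower, 0 to 1 Mrpl members higher, 0 to 1 lower, 0 to 2 Mrps members lower, medians of -0.073 to -0.022 (Mrpl) and -0.098 to -0.022 (Mrps), and log2 fold changes of -0.054 to 0.0051 for Mrps23, -0.071 to 0.014 for Mrps10, -0.048 to 0.044 for Aurkaip1, -0.053 to 0.0055 for Gadd45gip1 and -0.028 to 0.050 for Mrpl58.

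The sign of small estimates turned, as log2 fold changes, with library totals for Mrps23 (0.028), Mrps10 (0.025), Mrps25 (0.012), Aurkaip1 (0.040), Ptcd3 (0.020) and Gadd45gip1 (0.024). With the Xist covariate it turned for Mrpl53 (0.038), Mrpl17 (0.042), Mrps23 (0.049), Mrps16 (0.014), Mrps21 (0.00089), Mrps10 (0.010), Mrps25 (0.068), Mrps26 (-0.018), Aurkaip1 (0.069) and Gadd45gip1 (0.019). In the libraries with airway RNA it turned for Mrpl42 (0.00076), Mrps23 (0.018), Mrps10 (0.0032), Aurkaip1 (0.020) and Gadd45gip1 (0.0081), and in those without for Mrpl53 (0.11), Mrpl48 (-0.017), Mrps17 (-0.0082), Mrps26 (-0.026) and Mrpl58 (-0.15). With the length offset it turned for Mrps23 (0.0041) and Aurkaip1 (0.014). Depth limits Mrpl53, with the fewest counts, most.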

Other observations

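Some of these genes start beside another gene that is read the other way. A tested protein-coding neighbour on the opposite strand, with a start within 1000 bases, was found for 28 of the 78 members, a search added after the data were seen. The search covered the members only, so whether such pairs are more frequent here than among all genes was not tested. Of these 28 neighbours 4 were called by edgeR, a share near the 13.2% of all genes tested, and 2 of them were higher. They were Mtbp, beside Mrpl13 (log2 fold change 0.29 ± 0.08, adjusted p = 0.023), and the helicase Helq, beside Mrps18c (0.26 ± 0.08, adjusted p = 0.046). Another 2 were called lower: Tmem63b, beside Mrpl14 (-0.15 ± 0.04, adjusted p = 0.024), and Ptcd2, beside Mrps27 (-0.21 ± 0.05, adjusted p = 0.017). These calls depended on the libraries and the processing. That of Tmem63b was lost with library totals (adjusted p = 0.091), and that of Helq with DESeq2 (0.080), no count filter (0.062) and the replicate block (0.052). Leaving out WT replicate 2 ended those of Mtbp (adjusted p = 0.061), Helq (0.11) and Tmem63b (0.062), leaving out mutant replicate 4 ended all 4 (0.059 for Mtbp, 0.064 for Helq, 0.080 for Tmem63b and 0.054 for Ptcd2), and Helq lost its call without any 1 of the 8 libraries (0.057 to 0.11). Leaving out WT replicate 4 or mutant replicate 2 also ended that of Mtbp (0.066 and 0.071), and WT replicate 1, WT replicate 4 or mutant replicate 3 that of Tmem63b (0.067, 0.070 and 0.095). Mrps27 was the member called together with its neighbour. Mrpl13, Mrpl14 and Mrps18c were not called (adjusted p = 0.33, 0.28 and 0.95). Beside Mrpl49, which rose, Fau, a fusion of a ubiquitin-like protein and a cytosolic ribosomal protein, measured 221 ± 10.4 CPM in WT and 208 ± 6.09 in the mutants (-0.09 ± 0.04, adjusted p = 0.17), with its start 137 bases away. Mrpl46 and Mrps11 are each other's neighbours, with starts 412 bases apart.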
